A study of Homo sapiens with 4 samples.

Results

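The vesicular glutamate transporter genes SLC17A6, SLC17A7 and SLC17A8 were followed as a family in nuclei of human enteric ganglioids. They were chosen by symbol, and these 3 genes were found once each among the 36601 features of every count matrix. Such ganglioids are 3D cultures in which neurons of the gut wall form beside their progenitors, and here they came from the established embryonic stem cell line H9. RNA of single nuclei was sequenced from 2 control samples and from 2 samples given the receptor tyrosine kinase inhibitor PP121 at 2 µM from day 15 to day 20. All samples are H9 ganglioids from 1 line without any transgene named in the labels, and the series' design text describes each sample as a pool from its own differentiation. The deposited annotation dates replicate 1 of both groups to day 42 and replicate 2 of both groups to day 38, so each day holds 1 control and 1 PP121 sample. Another deposited column of sample names goes against the labels for the controls, calling control replicate 1 by the name of control replicate 2 and control replicate 2 by that of a stage 2 control. Labels and the day column were followed here, and every result by day, replicate or block rests on them.

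Glutamate is the main fast excitatory transmitter of the central nervous system, and in the gut it is released by some enteric neurons beside acetylcholine or peptides. A neuron can release glutamate from vesicles only if a vesicular glutamate transporter loads it, which makes these genes the usual molecular mark of a glutamatergic neuron. SLC17A6 encodes VGLUT2, the form found in enteric, sensory and many subcortical neurons, SLC17A7 encodes VGLUT1 of cortical neurons, and SLC17A8 encodes VGLUT3, which is often found in neurons that use another transmitter as well.

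The 4 samples held 4283, 3030, 4587 and 2912 annotated nuclei (control replicates 1 and 2, then PP121 replicates 1 and 2), with a median of 6289 to 7071 UMIs (distinct RNA molecules counted) per nucleus. Enteric neurons numbered 2301, 1250, 2030 and 976. All 11 neuron markers were measured in the neurons of every sample, with a summed level of 7822 to 10785 CPM (counts scaled to library size), against 974 to 1424 CPM in the class called progenitor 1 and 1581 to 2101 CPM in progenitor 2. Progenitor markers summed to 418 to 468 CPM in the neurons and to 1914 to 2434 CPM in progenitor 2. Pairs of samples shared 4 to 15 cell barcodes.

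In the GRCh38 genome (GENCODE 29), SLC17A6 (ENSG00000091664) lies on the plus strand at chr11:22338097-22379503, SLC17A7 (ENSG00000104888) on the minus strand at chr19:49429401-49442360, and SLC17A8 (ENSG00000179520) on the plus strand at chr12:100357079-100422059. SLC17A6 is the only member that other genes overlap. The antisense RNA AC104009.1 shares 149 bases with its 5′ end, and the antisense RNA AC040936.1 lies within it over 1082 bases. Whether strand was used in counting is not stated, so reads of SLC17A6 and of these antisense genes may not be told apart. RefSeq (GRCh38.p14) names the neighbour on the opposite strand SLC17A6-DT, which ends at base 22283730 as AC104009.1 does in GENCODE. The 250 bases before the RefSeq start of SLC17A6 are given because the start of this divergent RNA falls within them and its level follows that of SLC17A6, as described further on. They lie at chr11:22338131-22338380 and are printed for the plus strand. Capitals mark the 158 bases between both RefSeq starts (22338222 for SLC17A6-DT and 22338381 for SLC17A6). By GENCODE 29 SLC17A6 starts earlier, at 22338097. The whole stretch then lies inside the gene, and no gap separates it from AC104009.1, so label and capitals hold for RefSeq only.
SLC17A6 upstream: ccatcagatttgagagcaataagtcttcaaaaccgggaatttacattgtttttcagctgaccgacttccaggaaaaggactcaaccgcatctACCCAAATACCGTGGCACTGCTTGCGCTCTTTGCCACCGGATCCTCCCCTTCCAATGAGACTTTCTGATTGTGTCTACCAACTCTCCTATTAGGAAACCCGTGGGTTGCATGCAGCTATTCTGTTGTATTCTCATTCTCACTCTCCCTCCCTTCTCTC

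SLC17A6 was the family member of the enteric neurons. Its level was 18.1 CPM (343 UMIs) in control replicate 1, 38.7 CPM (429 UMIs) in control replicate 2, 41.1 CPM (692 UMIs) in PP121 replicate 1 and 58.0 CPM (508 UMIs) in PP121 replicate 2, a mean of 39.0 CPM ± 16.4 (SD, n = 4). Control replicate 1 was the lowest and PP121 replicate 2 the highest, and the 2 PP121 samples lay above both controls. Such an order of 2 against 2 samples can reach an exact permutation p of 0.333 at best. The share of all genes with such an order was not counted, so it is a description here and below. SLC17A8 was present in neurons at 2.85, 2.80, 1.25 and 1.71 CPM in the same order, from 54, 31, 21 and 15 UMIs. SLC17A7 gave 8, 4, 6 and 2 UMIs in neurons, each in a different nucleus, or 0.422, 0.361, 0.356 and 0.228 CPM. UMI counts carry no correction for gene length, so the members were set against each other per kilobase of exon. On that scale SLC17A6 stood at 7.96 CPM per kilobase ± 3.34, SLC17A8 at 0.504 ± 0.187 and SLC17A7 at 0.0569 ± 0.0135 (SD, n = 4), and the samples of the 3 genes did not overlap. Per kilobase of the whole gene, introns included, the means were 0.941, 0.0331 and 0.0264 CPM, and the samples of SLC17A7 and SLC17A8 overlapped. Whether intronic reads were counted is not stated.

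Across classes of nuclei, the level of SLC17A6 in neurons was above that of every other class in every sample. Progenitor 1 held 0.758, 2.76, 6.12 and 3.94 CPM, and progenitor 2 held 1.34, 2.04, 3.03 and 2.78 CPM. Mesenchymal nuclei held 0, 1.93, 0 and 6.05 CPM, nuclei of the class called unknown 0.582, 0, 3.29 and 3.07 CPM, and the 92 epithelial nuclei a total of 1 UMI. These 5 classes overlapped in their range over samples. SLC17A8 had another order. Its highest level was in the unknown class, at 12.2, 12.6, 7.67 and 17.7 CPM, and no sample of another class reached 7.67 CPM. Progenitor 1 (4.55, 4.52, 0.712 and 3.61 CPM), progenitor 2 (4.36, 3.33, 2.02 and 4.32 CPM) and neurons overlapped with one another for this gene. The 568 nuclei of the unknown class had a summed level of progenitor markers of 1858 to 2361 CPM and of neuron markers of 774 to 1147 CPM. SLC17A7 was at or under 1.80 CPM in every class and sample. The classes were made by the authors from the expression of these nuclei, so these orders are descriptions.

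**Figure D1:**
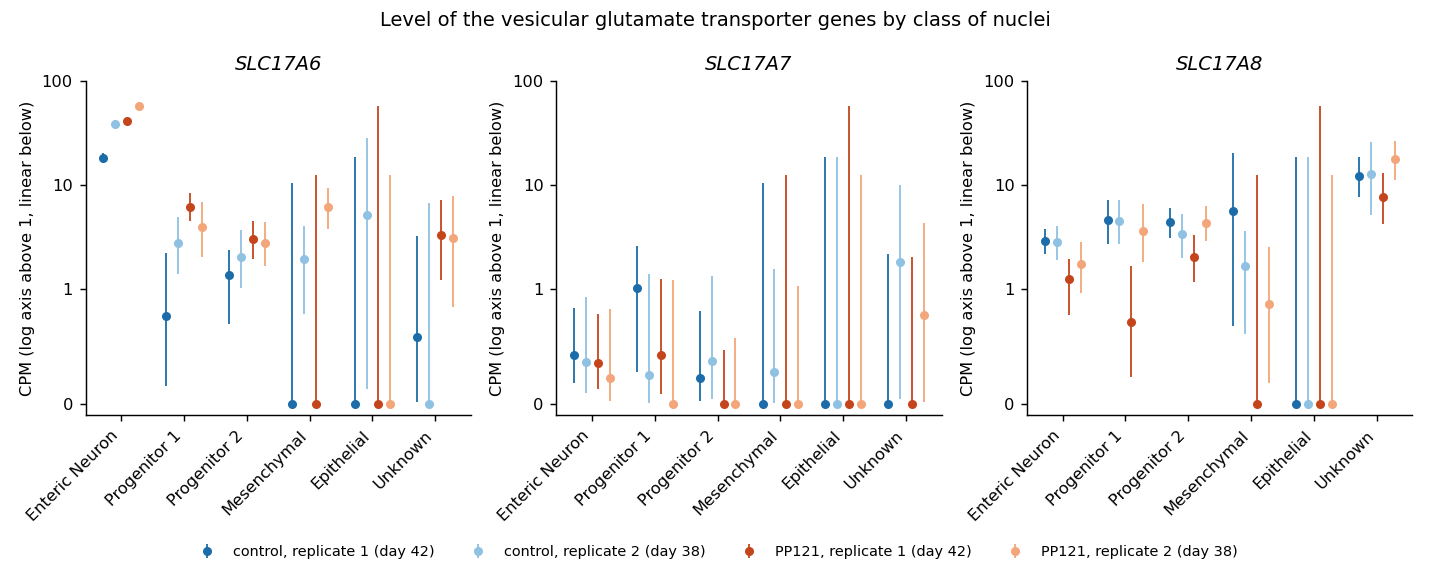
Level of SLC17A6, SLC17A7 and SLC17A8 (CPM, on an axis that is logarithmic above 1 and linear below) in each class of nuclei, with 1 point per sample and its exact Poisson interval at 95%, which covers counting error only. SLC17A6 sits at 18.1 to 58.0 CPM in enteric neurons and at or under 6.12 CPM elsewhere, whereas SLC17A8 is highest, at 7.67 to 17.7 CPM, in the unknown class.

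A share of nuclei with a UMI depends on depth, so each nucleus was thinned to 2000 UMIs for the shares. SLC17A6 was then detected in 62 of 2291 neurons of control replicate 1 (2.71%, exact Clopper-Pearson 95% interval 2.08 to 3.46), 81 of 1247 of control replicate 2 (6.5%, 5.19 to 8.01), 111 of 2024 of PP121 replicate 1 (5.48%, 4.53 to 6.57) and 83 of 974 of PP121 replicate 2 (8.52%, 6.84 to 10.5). Control replicate 2 lay above PP121 replicate 1, so the groups overlapped. Over the samples together 5.16% of neurons held a SLC17A6 UMI (4.63 to 5.72), against 0.91% of progenitor 1 nuclei, 0.291% of progenitor 2 nuclei and 0.334% of mesenchymal nuclei (0.0689 to 0.973), which should lack the gene. Before thinning, the median depth of neurons was 7498 UMIs and that of mesenchymal nuclei 7689 UMIs. SLC17A8 was detected in 0.382% of neurons (25 of 6536, 0.248 to 0.564), and this interval overlapped with that of mesenchymal nuclei (1 of 898, 0.00282 to 0.619). In the unknown class the share was 2.83% (16 of 565, 1.63 to 4.56), above both. SLC17A7 was found in 0.0765% of neurons (5 of 6536, 0.0248 to 0.178) and in 0.111% of mesenchymal nuclei (1 of 898, 0.00282 to 0.619). With mesenchymal nuclei taken as background, its UMIs in neurons could not be told from background on so few nuclei. Intervals cover counting error only.

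Without thinning, 160, 198, 296 and 221 neurons held a SLC17A6 UMI, with a mean of 2.14, 2.17, 2.34 and 2.30 UMIs in each and at most 28, 10, 20 and 13. A single UMI was seen in 93, 92, 140 and 103 of them. SLC17A6 neurons therefore mostly gave 1 or a few UMIs, while SLC17A7 never exceeded 1 UMI in a neuron.

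The comparison of PP121 with control addresses whether the transporter level differs weeks after early exposure to PP121. Summed counts of neurons carry both the number of SLC17A6 neurons and the RNA in each, which cannot be told apart in these sums. For SLC17A6 in enteric neurons, the PP121 samples were 0.85 ± 0.37 higher on the log2 scale (SE, edgeR's quasi-likelihood test, Benjamini-Hochberg adjusted p = 0.421, n = 2 against 2). The PP121 sample was 2.27-fold above the control sample of day 42 and 1.5-fold above that of day 38. With the replicate number, which marks the day, as a block, the difference was 0.92 ± 0.13 (edgeR, adjusted p = 1.83e-05). Without the block, edgeR called 0 of 21243 genes in neurons (0%), with 2549 at an unadjusted p under 0.05 and 64 called by DESeq2. With the block, which leaves 1 residual degree of freedom, it called 3152 genes (14.8%). The call for SLC17A6 thus depends on the block. Without PP121 replicate 1 the value was 1.11 (edgeR, adjusted p = 0.00689), from 1 PP121 sample of day 38 that is assumed to vary as the 2 controls do. The fits without PP121 replicate 2 (0.56, adjusted p = 0.293), control replicate 1 (0.37, adjusted p = 0.967) and control replicate 2 (1.53, adjusted p = 0.625) did not pass.

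For SLC17A8 in neurons the direction was the opposite. Both PP121 samples lay below both controls (2.85 and 2.80 against 1.25 and 1.71 CPM), a difference of -0.92 ± 0.36 on the log2 scale (edgeR, adjusted p = 0.403). The ratio of PP121 to control was 0.438 on day 42 and 0.613 on day 38. The block did not bring it past the threshold (-0.94 ± 0.36, edgeR, adjusted p = 0.0758). SLC17A7 did not pass the filter on low counts. Tested without a filter, its 20 UMIs gave -0.32 ± 0.83 in neurons (edgeR, adjusted p = 0.93), which does not inform on a change.

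In the 2 progenitor classes summed, SLC17A6 stood at 1.16, 2.34, 4.48 and 3.15 CPM, with the PP121 samples above both controls, and differed by 1.14 ± 0.45 on the log2 scale (edgeR, adjusted p = 0.975). Of 20260 genes, 0 (0%) were called there, with 962 at an unadjusted p under 0.05 and 39 called by DESeq2, and 349 (1.72%) with the block, under which SLC17A6 had an adjusted p of 0.19 at 1.18 ± 0.41. SLC17A8 in progenitors, at 4.42, 3.83, 1.40 and 4.10 CPM, differed by -0.63 ± 0.49 (edgeR, adjusted p = 1.00) with PP121 replicate 2 among the controls. The PP121 difference in neurons minus that in progenitors was -0.33 ± 0.66 for SLC17A6 and -0.29 ± 0.69 for SLC17A8 on the log2 scale (edgeR interaction term, adjusted p = 1.00 for both). No gene of 21787 (0%) passed that test, with 709 at an unadjusted p under 0.05 and 0 called by DESeq2, so a difference between neurons and progenitors in the PP121 effect was not detected.

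The share of neurons with a SLC17A6 UMI at 2000 UMIs was 4.60% ± 2.68 in controls and 7.0% ± 2.15 with PP121 (SD, n = 2 each), a difference of 2.40 percentage points (exact two-sided permutation test, p = 0.667, adjusted over the 3 members p = 1.00). Within days the difference was 2.78 points on day 42 and 2.03 points on day 38. For SLC17A8 the share was 0.521% ± 0.0574 in controls and 0.253% ± 0.0781 with PP121, a difference of -0.268 points (exact permutation test, p = 0.333, adjusted p = 1.00). The groups did not overlap, on 11 and 7 neurons with a UMI in controls and 4 and 3 with PP121. The smallest p that 2 against 2 samples can give is 0.333.

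Between the days, SLC17A6 was lower on day 42 in both groups. The control sample of day 38 was 2.14-fold above that of day 42, and the PP121 sample of day 38 was 1.41-fold above that of day 42. With treatment as a term, day 42 fell by 0.84 ± 0.13 on the log2 scale below day 38 (edgeR, adjusted p = 6.22e-05). The same test called 1234 of 21243 genes lower (5.81%) and 781 higher (3.68%) on day 42. Without the treatment term the value was -0.76 (edgeR, adjusted p = 0.723). Day, replicate and differentiation cannot be told apart here. SLC17A8 did not pass this test (-0.21 ± 0.35, edgeR, adjusted p = 0.776), nor did the gene show 1 order of days in both groups.

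SLC17A6 was unevenly spread over the subtypes that the authors gave to neurons, which carry separate names in the control and PP121 annotations and are not matched between them. In the control annotation, subtype EN 4 held 140 CPM in replicate 1 and 123 CPM in replicate 2, and EN 8 held 102 CPM in both. The other control subtypes held at most 18.5 CPM. In the PP121 annotation, EN I held 190 and 136 CPM, EN H 123 and 122 CPM, EN D 75.8 and 95.3 CPM (the latter from 10 neurons) and EN A 60.3 and 61.9 CPM, and the other subtypes held at most 14.4 CPM. In both annotations every replicate of these subtypes lay above every replicate of the others. EN 4 and EN 8 were 12.2% and 26.5% of control neurons and held 81.9% and 75.1% of their SLC17A6 UMIs. EN A, EN D, EN H and EN I were 42.3% and 56.1% of PP121 neurons and held 87.3% and 89.0% of the SLC17A6 UMIs. These subtypes were picked by their SLC17A6 level, so the values are descriptions.

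**Figure D2:**
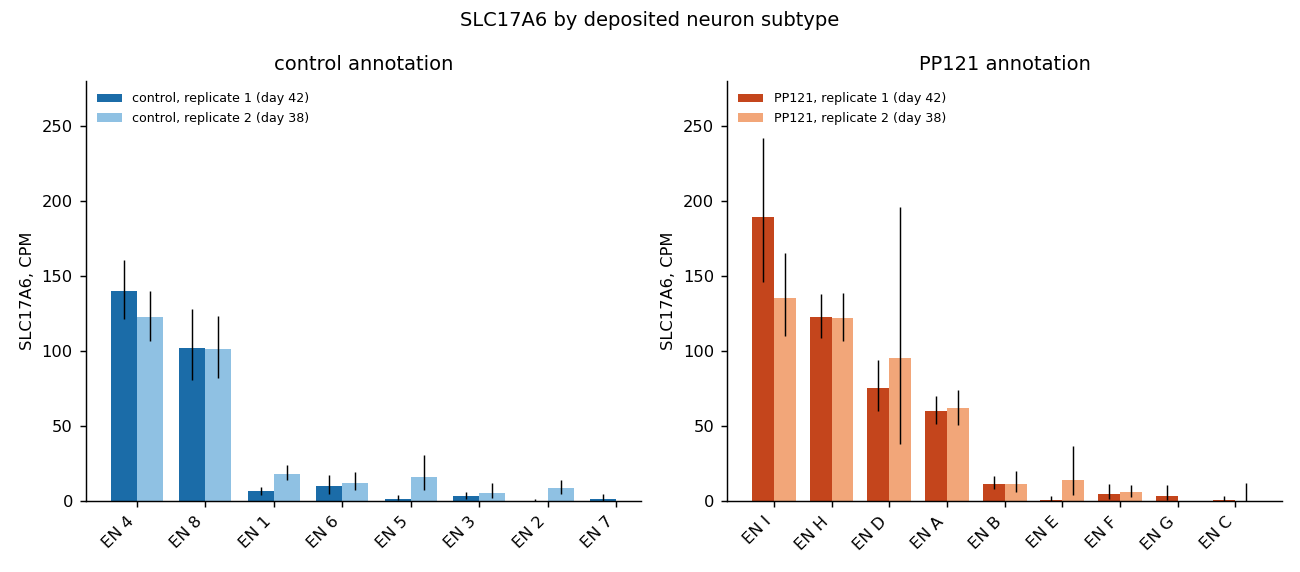
SLC17A6 level (CPM) in each deposited neuron subtype with at least 10 neurons, control annotation on the left and PP121 annotation on the right, with 1 bar per sample and exact Poisson intervals at 95% as lines. EN 4 and EN 8 in controls and EN I, EN H, EN D and EN A with PP121 stand at 60.3 to 190 CPM, above the other subtypes.

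The day difference of SLC17A6 moved with the makeup of the neurons. Within EN 4 and EN 8 together the level was 127 CPM on day 42 and 115 CPM on day 38. Weighting the control subtype levels of day 42 by the subtype shares of day 38 gave 35.8 CPM, beside 18.1 CPM as measured on day 42 and 38.7 CPM on day 38. The reverse weighting gave 23.1 CPM. In the PP121 samples the same steps gave 60.3 CPM and 44.0 CPM, beside 41.1 CPM on day 42 and 58.0 CPM on day 38. The part of makeup in the day difference was not tested.

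Neurons also carried transmitter identities in the deposited annotation, a neuron having none, one or several, and by the study's methods such calls rest on imputed values. How the glutamatergic identity was defined is not given in the sources used here, so the members may have entered it and their levels in it are descriptions. It was held by 571, 546, 683 and 605 neurons, or 34.2% ± 13.3 of control and 47.8% ± 20.0 of PP121 neurons (SD, n = 2 each), a difference of 13.6 points (exact two-sided permutation test, p = 0.667). Within day 42 the PP121 share was 8.83 points higher, within day 38 it was 18.3 points higher, and the groups overlapped. The 16, 16, 143 and 61 neurons without a subtype carried no identity call. Of neurons with a subtype, 34.6% ± 13.6 of control and 51.2% ± 21.2 of PP121 ones held the identity (SD, n = 2 each). SLC17A6 stood at 27.1, 45.3, 63.4 and 62.9 CPM in glutamatergic neurons. In the other neurons with a subtype of the same samples it stood at 15, 33.2, 30.5 and 53.6 CPM. SLC17A8 stood at 7.44, 4.73, 2.54 and 2.29 CPM in glutamatergic neurons and at 1.23, 0.927, 0.561 and 0.439 CPM in the others. Both genes were higher with the identity in 4 of 4 samples, SLC17A8 by the larger ratio in each.

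The identity and the measured UMIs overlapped in part. Of glutamatergic neurons, 15.8%, 23.1%, 23.7% and 26.3% held a UMI of any member before thinning. Of neurons with a SLC17A6 UMI, 38.1%, 52.0%, 51.4% and 66.5% carried the identity. Neurons called catecholaminergic held more SLC17A6 than glutamatergic ones in every sample, at 58.7, 71.9, 73.5 and 81.2 CPM. Nitrergic neurons held 36.0, 49.8, 69.9 and 94.0 CPM, also above the glutamatergic neurons of each sample. Serotonergic neurons held 8.95, 41.7, 26.9 and 41.2 CPM, cholinergic neurons 3.94, 6.47, 10.3 and 31.4 CPM, and GABAergic neurons 2.06, 5.13, 6.77 and 10.0 CPM, the lowest in each sample. A neuron can carry several identities, so these groups share nuclei.

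**Figure D3:**
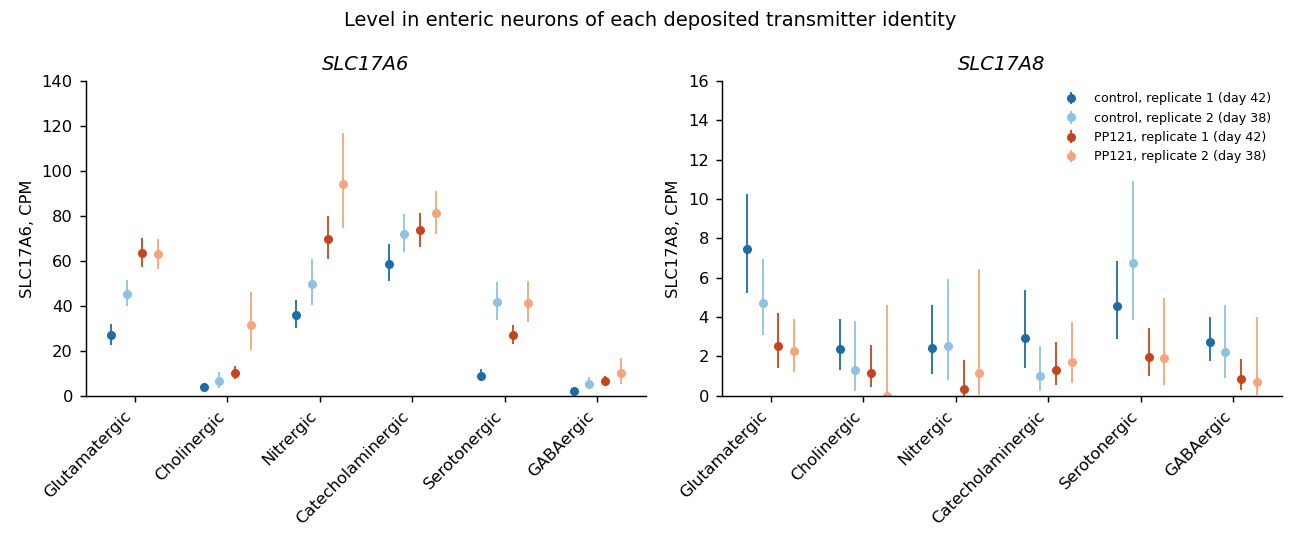
SLC17A6 (left) and SLC17A8 (right) level (CPM, separate scales) in enteric neurons of each deposited transmitter identity, with 1 point per sample and exact Poisson intervals at 95%. SLC17A6 is highest in catecholaminergic and nitrergic neurons, at 36.0 to 94.0 CPM, and lowest in GABAergic neurons, at 2.06 to 10.0 CPM.

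Within glutamatergic neurons, PP121 and control samples differed by 0.86 ± 0.24 on the log2 scale for SLC17A6 (edgeR, adjusted p = 0.215), with both PP121 samples above both controls. With the block the value was 0.89 ± 0.15 (edgeR, adjusted p = 1.46e-05). For SLC17A8 the difference was -1.25 ± 0.40 (edgeR, adjusted p = 0.245) and -1.24 ± 0.40 with the block (edgeR, adjusted p = 0.0313), from 37, 26, 15 and 13 UMIs. Of 18191 genes, 4 (0.022%) were called without the block and 2103 (11.6%) with it. Without the block, SLC17A6 passed when PP121 replicate 1 (0.88, edgeR, adjusted p = 0.00396) or PP121 replicate 2 (0.85, adjusted p = 0.00773) was left out, where the lone PP121 sample is assumed to vary as the controls do. It did not pass without control replicate 1 (0.51, adjusted p = 0.804) or control replicate 2 (1.34, adjusted p = 0.105). These neurons are part of the enteric neurons compared above. The members may have entered the definition of the glutamatergic identity. A test in neurons that may have been picked by the tested gene cannot show a PP121 effect on it, so these values are descriptions.

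Neurons with a SLC17A6 UMI held RNA of the GABA system less often than other neurons at equal depth. At 2000 UMIs per nucleus, 4 of 337 such neurons (1.19%, 0.324 to 3.01) held a UMI of GAD2, which makes GABA, against 863 of 6199 (13.9%, 13.1 to 14.8) of the other neurons. The intervals in this paragraph pool the samples and cover counting error only, not the spread between samples. By sample the shares were 1.61% against 17.4%, 0% of 81 neurons against 8.75%, 1.80% against 16.8% and 1.20% against 5.72%, lower with SLC17A6 in 4 of 4. The other GABA enzyme, GAD1, was found in 0.593% against 7.21%, and the vesicular GABA transporter SLC32A1 in 0.297% against 2.24%. CHAT, which makes acetylcholine, was found in 0.89% against 3.21%, and in PP121 replicate 2 in 1.20% against 1.35%. In the test of summed counts described below, CHAT (-1.43 ± 0.71 on the log2 scale, edgeR, adjusted p = 0.39) did not pass. Nor did SLC32A1 (-2.66 ± 1.17, edgeR, adjusted p = 0.278). TH, the first enzyme of catecholamine synthesis, was found in 3.26% (1.64 to 5.77) against 1.95% (1.62 to 2.33), and NOS1, the neuronal nitric oxide synthase, in 0.89% (0.184 to 2.58) against 0.613% (0.434 to 0.84), both with overlapping intervals. Of the 337 neurons, 1 also held a SLC17A8 UMI and 0 a SLC17A7 UMI, which at 3 counts allows up to 0.89% of nuclei with a UMI at this depth. The shares of SLC17A8 were 0.297% (0.00751 to 1.64) with and 0.387% (0.248 to 0.576) without SLC17A6, a difference that was not detectable at this depth.

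**Figure D4:**
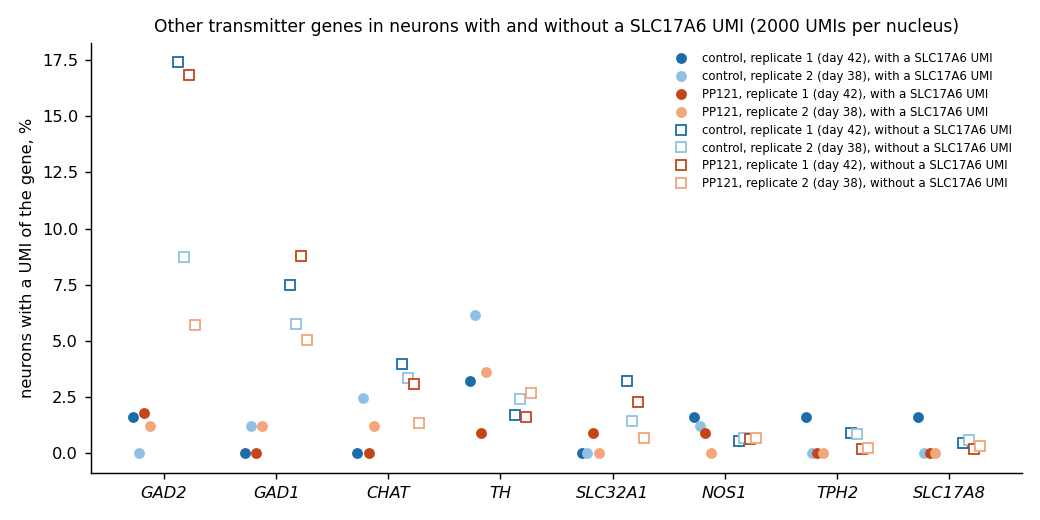
Share of enteric neurons (%) with a UMI of each transmitter gene, in neurons with (filled circles) and without (open squares) a SLC17A6 UMI, 1 point per sample, each nucleus thinned to 2000 UMIs. For GAD2 the circles lie at 0 to 1.80% and the squares at 5.72 to 17.4%.

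To find which genes go with SLC17A6 in the same nuclei, counts of neurons with and without its UMI were summed per sample at 2000 UMIs per nucleus and compared with the sample as a block. SLC17A6 itself was left out. Genes with few UMIs can pass the filter only through the neurons where they are high. Of 12790 genes, 295 were higher (2.31%) and 171 lower (1.34%) in SLC17A6 neurons (edgeR, adjusted p under 0.05). Among the 12 largest rises were TAC1, the gene of substance P (2.51 ± 0.35 on the log2 scale), and LHX9, a LIM homeobox factor (2.54 ± 0.53). TAC1 stood at 40.3, 43.2, 76.6 and 120 CPM in neurons with and at 2.69, 7.72, 12.0 and 30.3 CPM in neurons without a SLC17A6 UMI. The adhesion molecules CDH9 (2.82 ± 0.78) and CHL1 (2.07 ± 0.33), ARPP21 (2.15 ± 0.21), TMEM255A (2.30 ± 0.48), TMEM132D (2.10 ± 0.23), PLCXD3 (2.08 ± 0.42) and the RNAs AL161908.1 (2.19 ± 0.47), AC040936.1 (3.46 ± 0.63) and AC055878.1 (4.34 ± 0.99) also rose. LHX9, CDH9, TMEM255A, PLCXD3, AL161908.1, AC040936.1 and AC055878.1 were low in neurons without the UMI. There LHX9 stood at 3.36, 2.57, 5.23 and 17.4 CPM and CDH9 at 4.04, 1.29, 2.61 and 2.24 CPM. Such genes may have passed the filter only through the SLC17A6 neurons, which sets their direction, so these rises are descriptions. CDH9 lost its call when any 1 of control replicate 1, control replicate 2 or PP121 replicate 1 was left out, with adjusted p = 0.0739, 0.182 and 0.131 by edgeR. AL161908.1 (adjusted p = 0.085) and PLCXD3 (adjusted p = 0.0984) lost theirs without control replicate 2.

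The 5 largest falls were PSD4 (-5.40 ± 0.48), the glycine transporter SLC6A5 (-3.71 ± 0.25), ASB18 (-3.64 ± 0.54), GAD2 (-3.44 ± 0.43) and PAX8-AS1 (-3.44 ± 0.23) on the log2 scale. SLC6A5, which takes up glycine at inhibitory terminals, stood at 8.06, 30.9, 72.1 and 0 CPM in SLC17A6 neurons and at 423, 358, 564 and 253 CPM in the others, without overlap. GAD2 stood at 16.1, 0, 9.01 and 6.02 CPM against 116, 56.2, 114 and 37.0 CPM, also without overlap.

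**Figure D5:**
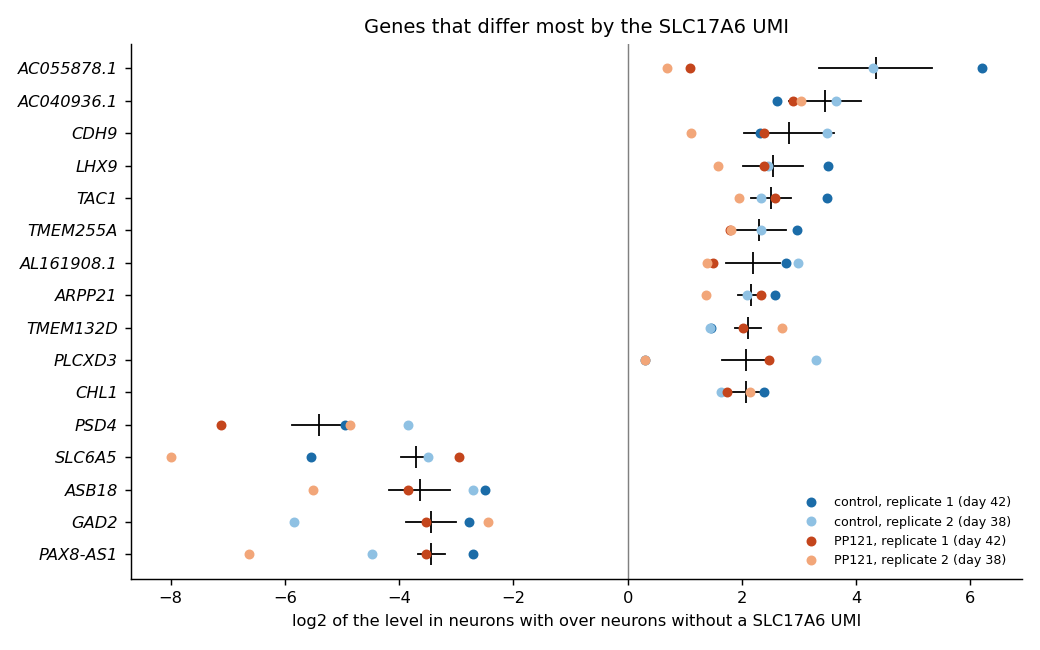
Log2 of the level in enteric neurons with over those without a SLC17A6 UMI for 11 of the 12 largest rises and the 5 largest falls, with 1 point per sample (1 CPM added to both levels) and the edgeR estimate ± SE as a cross. TAC1, LHX9 and CHL1 lie above 0 and SLC6A5 and GAD2 below 0 in all 4 samples.

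Over all genes tested in that comparison, 2.31% were higher and 1.34% lower in SLC17A6 neurons, and the list counts stand beside those shares. Of the 16 genes of glutamate supply and uptake, 10 were tested, 1 rose and 0 fell, with a median of 0.09 beside -0.04 over all genes. The riser was the glutamate uptake transporter SLC1A2 (1.12 ± 0.18, edgeR, adjusted p = 1.10e-05), at 105, 284, 149 and 277 CPM against 78.1, 82.3, 98.8 and 108 CPM. Of 8 tested genes of other transmitters, 0 rose and 2 fell, GAD1 (-3.20 ± 0.60) and GAD2, with a median of -1.04. The choline transporter SLC5A7 was at 1.70 ± 0.54 without passing (edgeR, adjusted p = 0.0639). Of 16 listed genes of intrinsic sensory neurons, 4 were tested, 2 rose and 0 fell (median 1.20). The risers were TAC1, already named among the largest rises, and the neurotrophin-3 receptor NTRK3 (1.63 ± 0.16). NMU (-0.22 ± 0.49) and CALB2 (0.77 ± 0.68) did not pass. Of 10 tested neuron fate factors, 2 rose and 2 fell (median 0.41). LHX9 and LMX1B (1.38 ± 0.28) rose, whereas PAX2 (-3.06 ± 0.21) and LHX1 (-3.08 ± 0.47), known from GABAergic lineages of the spinal cord, fell. LHX9 may have passed the filter only through the SLC17A6 neurons, so its rise is a description. Of 18 tested genes of vesicle release, SYN3 rose (0.61 ± 0.12) and SV2C fell (-2.67 ± 0.44), with a median of 0.12. Of the 6 other SLC17 genes, 1 was tested and did not pass.

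The genes around SLC17A6 also went with its UMI. Of 6 genes within 200 kb, listed after their values were seen, 5 were tested and all 5 rose, beside 2.31% of all genes. AC104009.1 and AC040936.1 overlap SLC17A6 and may share reads with the UMI that split the neurons. The count is therefore a description. AC104009.1, the divergent antisense RNA at whose start the sequence above lies, stood at 64.5, 74.1, 31.5 and 84.3 CPM in SLC17A6 neurons and at 9.42, 15.4, 13.9 and 21.9 CPM in the others (2.01 ± 0.35, edgeR, adjusted p = 2.34e-05). ANO5, a protein-coding gene whose end lies 54.7 kb upstream, stood at 177, 154, 180 and 120 CPM against 40.6, 44.2, 54.6 and 58.4 CPM (1.68 ± 0.21, edgeR, adjusted p = 6.64e-09). LINC01495 at 66.2 kb (3.26 ± 0.93, edgeR, adjusted p = 0.0289), AC055878.1 at 113 kb and AC040936.1 inside SLC17A6 rose as well, all on few UMIs. Genes this low could pass the filter only through the SLC17A6 neurons, so their direction was set by it. At 2000 UMIs per nucleus AC055878.1 had 9, 3, 1 and 1 UMIs in SLC17A6 neurons and 0, 0, 6 and 6 in the others, so its fold rests mostly on control replicate 1. LINC01495 had 1, 2, 2 and 7 UMIs in SLC17A6 neurons, and AC040936.1 had 2, 8, 7 and 5.

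Over 28 sums of subtype by sample, the genes with a level most like that of SLC17A6 were AC104009.1 (Pearson r = 0.892), TMEM163 (0.884), NRN1 (0.868), ANO5 (0.852) and RBMS1 (0.848) among 11293 genes. GAD2 had the lowest r of all, -0.797. These sums share samples and depth, so r is a description. AC104009.1 stood at 10.1, 17.7, 14.9 and 27.4 CPM in neurons and TMEM163 at 74.1, 175, 170 and 311 CPM, with the lowest value in control replicate 1 and the highest in PP121 replicate 2, as for SLC17A6.

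Among the same lists, 0 genes passed between PP121 and control in neurons without the block. With the block, edgeR called 7.97% of all genes higher and 6.86% lower with PP121, and list counts are given beside those shares. Of 13 tested genes of glutamate supply and uptake 1 rose and 3 fell, with a median of -0.12 beside -0.01 over all genes. Those that fell included GLUD1 (-0.43 ± 0.11) and GOT1 (-0.45 ± 0.13), enzymes of glutamate metabolism, and the riser was SLC1A2 (0.29 ± 0.10). Of 23 tested fate factors 8 rose and 1 fell (median 0.18). LHX9 (2.03 ± 0.30) and LMX1B (1.53 ± 0.14) were among the risers. Both were also higher in SLC17A6 neurons, with the limit on LHX9 given above. TAC1, at 4.27, 13.4, 13.8 and 34.8 CPM in neurons, was the riser among 11 tested sensory genes (1.56 ± 0.17, median 0.14). Of 13 tested genes of other transmitters 1 rose and 4 fell (median -0.05), GAD2 among the latter (-0.42 ± 0.12). Of 20 tested vesicle release genes 3 rose and 5 fell (median -0.05), led by VAMP2 (-0.91 ± 0.12) and SV2B (-1.73 ± 0.44). SLC17A5, a lysosomal member of the family, was the only other SLC17 gene tested and fell (-0.38 ± 0.12).

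Between the days, TAC1 (-1.52 ± 0.17) and LMX1B (-1.57 ± 0.14) were lower on day 42 like SLC17A6, and GAD2 (1.25 ± 0.13), SLC32A1 (0.96 ± 0.20) and SV2C (1.15 ± 0.12) were higher (edgeR, adjusted p under 0.05). Over all genes 3.68% were higher and 5.81% lower on day 42. By list, 0 rose and 1 fell of 13 tested genes of glutamate supply (median -0.01 beside 0.01 over all genes), 4 rose and 1 fell of 13 of other transmitters (0.17), 1 rose and 2 fell of 11 sensory genes (0.11), 3 rose and 9 fell of 23 fate factors (-0.80) and 3 rose and 1 fell of 20 vesicle genes (0.21). LHX9 was not among the genes called between days.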

How the data were processed

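Nuclei were tagged with hashtag antibodies and run in droplets, and the authors deposited for each sample a matrix of UMI counts with an annotation per nucleus. The methods name kallisto and bustools for the matrices, and the submitters' processing notes name Cell Ranger, Seurat 4.0.4 and GRCh38. The use of strand and introns is not stated. Nuclei marked as low quality were dropped, classes and identities were taken as deposited, and no doublets were removed. Whole deposited counts were summed per sample and class. Tests used edgeR 4.0.16 (TMM, filterByExpr, quasi-likelihood, two-sided, Benjamini-Hochberg adjustment at 0.05). Alternatives were DESeq2 1.42.0, other filters, joint clusters made without the members, other thinning depths, the replicate block and leaving out each sample. Shares used an exact permutation test. Members and lists were chosen with earlier results of these data known. Genes in SLC17A6 neurons were named by size (12 rises, 5 falls) among those called with at least 10 CPM and 1 direction in all samples, and genes of fixed lists when they passed. Some genes that this rule covers are not reported here. Samples of the same replicate number share a day and were taken as pairs, since same-numbered samples deviated together from their group means (r = 0.608 in neurons, 0.418 in progenitors, 0.402 in glutamatergic neurons, across genes). The tests were checked on simulated data, where 100% of 100 genes changed by 2 on the log2 scale were recovered for PP121 in neurons (21194 genes) and 97% for SLC17A6 neurons (12723 genes). The changed genes had more counts than SLC17A7 and SLC17A8, a fixed spread between samples and no day effect. Their changes were larger than the member differences given above, so this check does not measure the power for the members. With 2 samples a group and no block, p-values measure the spread between samples that differ in both differentiation and day. The PP121 fits with the block and the day fit leave 1 residual degree of freedom. Their p-values rest largely on a spread borrowed across genes. In the comparison of SLC17A6 neurons with other neurons, p-values measure how that difference varies from sample to sample. Gene positions are from GENCODE 29, and the sequence is from RefSeq, which held all 3 members.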

Additional observations from a re-analysis of the deposited data

Results flagged for a closer look

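SLC17A8 differed between the days in how PP121 and control samples were ordered, in 2 classes. In progenitor 2 nuclei PP121 minus control was -2.34 CPM on day 42 (2.02 against 4.36 CPM, 16 and 39 UMIs) and 0.993 CPM on day 38 (4.32 against 3.33 CPM, 28 and 18 UMIs). In the unknown class it was -4.55 CPM on day 42 (7.67 against 12.2 CPM, 14 and 21 UMIs) and 5.06 CPM on day 38 (17.7 against 12.6 CPM, 23 and 7 UMIs). Each day holds 1 sample per group, the difference between the days was not tested, and the exact Poisson intervals of the paired samples overlap on both days in both classes.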

How the results depend on the processing

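SLC17A6 in enteric neurons kept its direction under every alternative and was past the threshold under the replicate block (0.92), under the block plus joint clusters (0.89) and without PP121 replicate 1 (left-out range 0.37 to 1.53 on the log2 scale). In glutamatergic neurons, whose identity the members may have entered, SLC17A6 was past the threshold under the block (0.89) and under the block plus joint clusters (0.87). Its left-out range there was 0.51 to 1.34. SLC17A8 was past the threshold in these neurons under the block (-1.24) and under the block plus joint clusters (-1.25). The block changed no other member's call. SLC17A6 lost its day call without the treatment term (-0.76). SLC17A8 in progenitors turned from -0.63 to 0.0416 without PP121 replicate 1 (left-out range -1.61 to 0.0416). The PP121 difference of neurons minus progenitors turned for SLC17A6 to 0.16 without PP121 replicate 1 (range -0.79 to 0.16), and for SLC17A8 to 0.046 without the 6% of nuclei with the highest Scrublet scores and to 0.45 without PP121 replicate 2 (range -0.68 to 0.45). The SLC17A7 share difference turned from 0.0106 to -0.0836 points without thinning (left-out range -0.0549 to 0.076), and the glutamatergic identity difference to -0.602 points without PP121 replicate 2 (range -0.602 to 27.7).

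Calls in neurons were 0 by edgeR, 64 by DESeq2, 69 without a filter, 3152 under the block, 1754 under the block plus joint clusters, and 0 to 1402 with a sample left out, most without PP121 replicate 1. In progenitors they were 0, 39, 270, 349, 337 and 0 to 168. In glutamatergic neurons they were 4, 167, 127, 2103, 1912 and 0 to 1032. Day calls were 2015, 390 by DESeq2 and 0 without the treatment term. Genes that went with a SLC17A6 UMI numbered 466, 261 by DESeq2, 919 at 4000 UMIs and 1476 without thinning, and AC055878.1 lost its call by DESeq2 (5.05, adjusted p = 0.295). Of the shares of other transmitter genes in SLC17A6 neurons, 75 of 90 recomputed values moved by less than the spread between samples, 12 by more in the same direction, and 3 changed sign, SLC17A7 at 4000 UMIs (0.154 points) and unthinned (0.141 points) and SLC17A8 at 4000 UMIs (-0.836 points, against 0.00453 points as the mean over samples at 2000 UMIs). The cause of these changes was not tested.

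Scrublet's own threshold marked 0, 0, 1 and 0 nuclei and so did not work, and removal by it gave no usable value. The removal by highest score was chosen after seeing the data. The day comparison was not run with a sample left out, since no residual degree of freedom remains. With 2 samples a group and 121 SLC17A8 and 20 SLC17A7 UMIs in neurons, small differences in these members were not detectable.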
